A study of Schizosaccharomyces pombe with 4 samples.

Results

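The small ribosomal subunit protein genes of fission yeast were examined in Schizosaccharomyces pombe fas S.j. and in wild-type S. pombe. In fas S.j. the coding regions of fas1 and fas2 had been replaced at their own loci by those of Schizosaccharomyces japonicus. Both genes encode subunits of the cytosolic fatty acid synthase. Cells of both strains grew exponentially at 24°C or 30°C in YES, a rich medium. A single poly(A) RNA library was sequenced per strain and temperature, 4 libraries in all, so no difference given here has a replicate check. The replacements kept the S. pombe untranslated regions and carry selection cassettes, kanR beside fas1 and hygR beside fas2, which wild type lacks. The methods list an h- auxotroph and an h+ prototroph with both replacements, and an h- prototrophic wild type, but do not say which of the listed strains were sequenced, nor how many transformants were used. The set was defined by gene identifier, as 53 rps genes for proteins of the cytosolic 40S subunit. The rule uses no measured value, but earlier results of these data were known when the set was chosen. All 53 were among the 5143 genes listed at 24°C.

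The 40S subunit carries the mRNA and reads its codons, while the large 60S subunit joins the amino acids. Ribosomal protein genes are among the most heavily transcribed genes of growing yeast, and their mRNA levels follow growth conditions through the TOR signalling pathway. Many ribosomal proteins of S. pombe are made from a pair of genes whose products are identical or nearly so. Their promoters often hold a pair of short boxes called HomolD and HomolE, of which HomolD takes the place of a TATA box.

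The 53 genes encode 30 proteins. Of these proteins, 8 come from 1 gene, 21 from 2 genes and 1, S4, from 3 genes. Chromosome I holds 27 of the genes, chromosome II 19 and chromosome III 7. In the RefSeq annotation of ASM294v3, 29 have introns and 24 do not, and the transcripts are 315 to 1270 bases long. Another 5 genes annotated for 40S proteins, namely rps2401 and rps2402 for S24, ubi3 and ubi5 for ubiquitin fused to S31, and cpc2 for RACK1, were not among the 53 and are given for comparison below.

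To show what the promoters of these genes share, the 100 bases just before the annotated transcript start are printed for 8 of them, from RefSeq ASM294v3 and in the direction of transcription. The genes were chosen as a pair or an extreme of the levels and differences described below. Capitals mark the first 7 or all 8 letters of the HomolD box (CAGTCACA), the central 8 letters of the HomolE box (CCCTACCC) or a 1-base variant of HomolD (CGGTCAC), on either strand. The first 2 sequences belong to the 40S gene with the highest level, rps2502 (chromosome I, bases 4208857 to 4208956, minus strand), and to that with the lowest, rps2202 (chromosome I, bases 1512391 to 1512490, minus strand).
rps2502: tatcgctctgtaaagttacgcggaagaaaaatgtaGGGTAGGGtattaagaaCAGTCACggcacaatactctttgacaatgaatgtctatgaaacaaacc
rps2202: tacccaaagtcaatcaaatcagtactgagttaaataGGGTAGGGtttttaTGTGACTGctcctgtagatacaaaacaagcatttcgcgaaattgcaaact

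Both held GGGTAGGG, the HomolE letters read on the other strand, as well as a match to HomolD, so these letters did not separate the highest gene from the lowest. Next come the pair for S1, rps101 (chromosome I, bases 175785 to 175884, minus strand) and rps102 (chromosome I, bases 898963 to 899062, minus strand), whose levels differed several-fold.
rps101: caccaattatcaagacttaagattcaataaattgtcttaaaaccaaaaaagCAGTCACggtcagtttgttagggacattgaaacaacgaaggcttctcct
rps102: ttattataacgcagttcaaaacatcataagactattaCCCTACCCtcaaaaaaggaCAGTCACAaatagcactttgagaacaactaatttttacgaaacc

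In this pair the higher gene, rps102, held CAGTCACA and CCCTACCC, and rps101 held the first 7 letters of HomolD without CCCTACCC. The pair for S23 differed most in its ratios of fas S.j. to wild type, and consists of rps23 (chromosome I, bases 2135811 to 2135910, minus strand) and rps2302 (chromosome II, bases 2896987 to 2897086, plus strand).
rps23: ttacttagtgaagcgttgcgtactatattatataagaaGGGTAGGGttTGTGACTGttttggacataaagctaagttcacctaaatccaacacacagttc
rps2302: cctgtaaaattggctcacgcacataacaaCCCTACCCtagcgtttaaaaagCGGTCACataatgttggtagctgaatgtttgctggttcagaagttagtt

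Here rps2302 carried the variant CGGTCAC where rps23 carried HomolD in full.

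The last 2 sequences are those of rps29 (chromosome II, bases 516328 to 516427, plus strand), the gene with the lowest ratio of fas S.j. to wild type, and of rps1602 (chromosome I, bases 1711083 to 1711182, minus strand), the only one of the 53 listed at 30°C.
rps29: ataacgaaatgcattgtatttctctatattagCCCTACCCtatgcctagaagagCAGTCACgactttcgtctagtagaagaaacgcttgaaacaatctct
rps1602: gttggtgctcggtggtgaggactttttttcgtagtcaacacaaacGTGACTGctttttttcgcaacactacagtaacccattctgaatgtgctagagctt

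Over the window of 250 bases before to 50 bases after each transcript start, CAGTCACA occurred on either strand in 32 of the 53 genes (60.4%) and in 137 of 5112 promoters genome-wide (2.68%). The HomolE letters CCCTACCC occurred in 23 of the 53 (43.4%) and in 81 of the 5112 (1.58%). The match to HomolD nearest to 50 bases before the start began between 75 and 43 bases before it, and that to HomolE between 90 and 59 bases before it. For CAGTCACA and for CCCTACCC alike, 1 of the 53 genes held more than 1 match. In 0 of the 53 did a match of one overlap a match of the other. Both were present in 11 genes, HomolD alone in 21, HomolE alone in 12 and neither in 9. Dropping the last letter of HomolD, a choice made after the matches were seen, raised the count to 48 of 53 (90.6%), against 4.71% of all promoters. The 5 genes without CAGTCAC were rps1202, rps1401, rps2302, rps502 and rps902, and rps2302 and rps502 held CGGTCAC in its place. Of 77 genes for 60S proteins, 72 held CAGTCAC (93.5%) and 24 held CCCTACCC (31.2%). A match is a description of the letters and not a measured binding site.

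**Figure D1:**
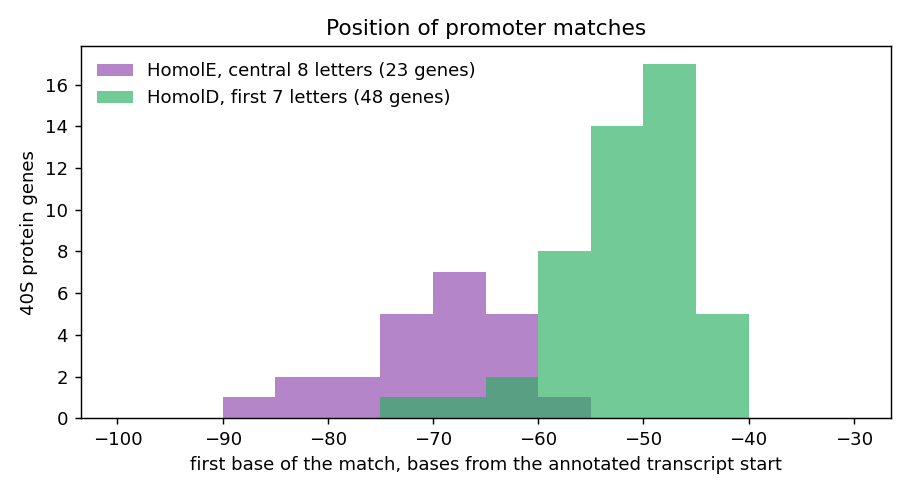
Number of 40S protein genes (vertical axis) by the distance in bases of the first base of a match from the annotated transcript start (horizontal axis), for the central 8 letters of HomolE (purple, 23 genes) and the first 7 letters of HomolD (green, 48 genes). HomolD matches crowd around a median of 51 bases before the start and HomolE matches lie farther out, around 69 bases before it.

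Levels are given in FPKM, sequenced fragments per kilobase of transcript, scaled for how deeply a library was read, so genes of different length can be compared within a library. A difference is given as log2 of FPKM + 1 in fas S.j. over FPKM + 1 in wild type, and is called lower or higher as a plain reading of 1 library against another. The 2 temperatures were scaled separately and are not compared by level. FPKM is relative to the other RNA of the same library, and less RNA per cell cannot be told apart from more RNA of other genes or from a different mixture of cells. The replaced genes followed the labels. fas1 had 7.35 FPKM in fas S.j. against 301 in wild type at 24°C, and 16.6 against 344 at 30°C, while fas2 had 0.320 against 336 and 0.832 against 347.

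The 40S protein genes were among the most abundant mRNAs of both strains at 24°C. Their levels ran between 463 and 5558 FPKM in fas S.j. and between 457 and 6263 FPKM in wild type, with medians of 1871 and 1952 FPKM. The median of all genes was 40.2 FPKM in fas S.j. and 39.9 FPKM in wild type. Though only 1.03% of the listed genes, the 53 genes took 13.1% of the summed FPKM in fas S.j. and 13.8% in the wild type, or 113630 and 121152 FPKM. In either strain 51 of them ranked among the 200 highest genes.

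The highest level among the 53 genes belonged to rps2502, for S25, a head protein needed in budding yeast and mammals for initiation at some internal ribosome entry sites, with 5558 FPKM in fas S.j. against 6263 in wild type. It was followed in wild type by rps20, with 4085 against 4497 FPKM, and by rps21, with 4393 against 4297 FPKM. At the low end stood rps2202, with 463 FPKM in fas S.j. against 457 in wild type. It was preceded by rps1401, with 686 against 711 FPKM, and rps1902, with 896 against 979 FPKM. The span between the highest and the lowest gene was 12-fold in fas S.j. and 13.7-fold in wild type.

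**Figure D2:**
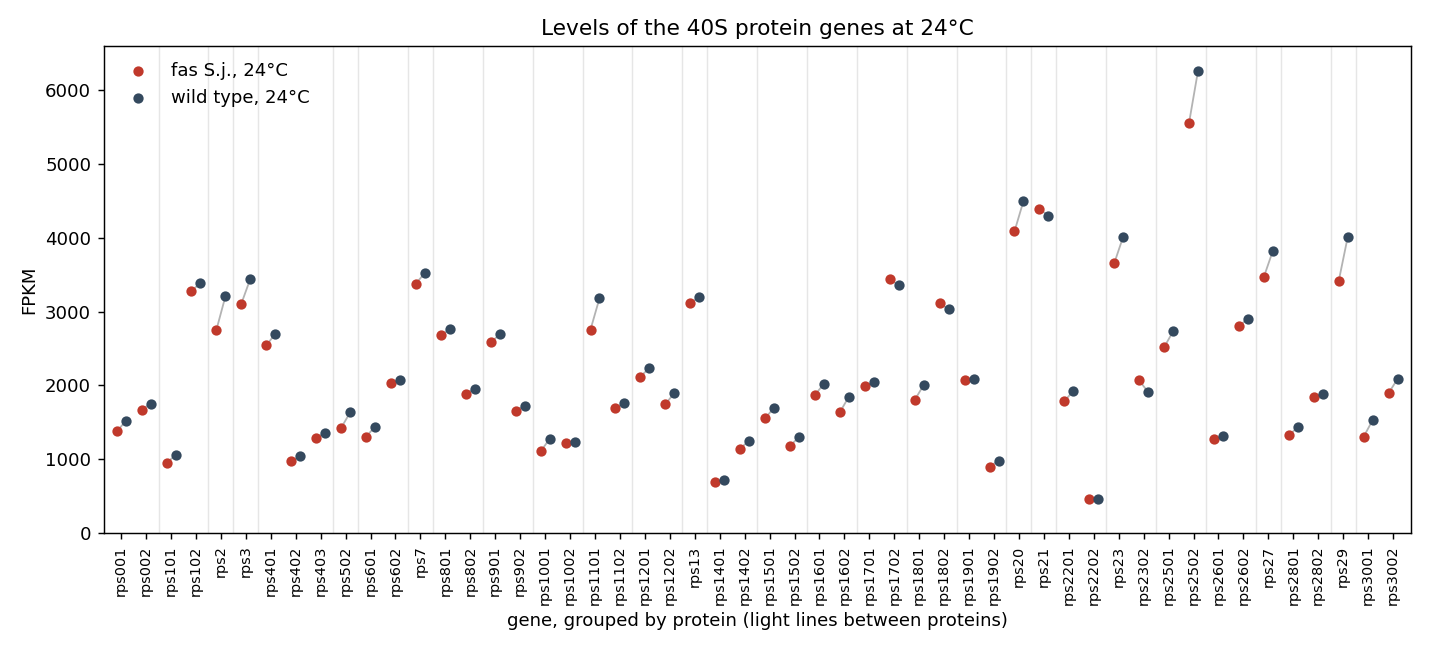
FPKM of each of 52 of the 53 genes at 24°C (vertical axis, linear) in fas S.j. (red, left of each pair of points) and wild type (dark blue, right), 1 library each, with genes ordered by the protein they encode. Levels differ from gene to gene by up to 12-fold in fas S.j. and 13.7-fold in wild type, while the 2 points of a gene lie close together, with the fas S.j. point below in 47 of the 52 genes.

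At 24°C most 40S protein genes had a slightly lower FPKM in the fas S.j. library than in the wild-type library. The median difference was -0.11 on the log2 scale, with quartiles of -0.14 and -0.04, or -7.04% of the wild-type level. Of the 53 genes, 47 were lower in fas S.j. by any amount, against 50.7% of the 4943 genes with a mean of at least 1 FPKM. Among the 295 genes whose mean was at least that of the lowest 40S gene (459.9 FPKM), 67.1% were lower, and this group includes the 40S and most of the 60S genes. With those ribosomal genes left out, 83 of the remaining 167 highly expressed genes were lower (49.7%) and their median was 0.0049. The median of all 4943 genes was -0.0037.

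None of these differences was large. No 40S gene was lower by 0.25 or more, against 14.3% of all genes, and none was higher by 0.25 or more, against 19.8% of all genes. Likewise 0 of 53 went beyond 0.8 in either direction, the size limit used in the study, against 6.27% of all genes. Among the 295 highly expressed genes, 35 were lower and 43 higher by 0.25 or more, and 12 went beyond 0.8. Of 77 genes for 60S proteins, 2 were lower and 1 higher by 0.25 or more, and 0 went beyond 0.8. With a limit of 0.1, chosen after the values were seen, 27 genes were lower and 1 was higher. The share of all genes lower by 0.1 was 34.0%, and among the 295 highly expressed genes it was 43.4%. The SD of the 53 differences was 0.076, against 0.54 over all genes and 0.11 over the 77 genes for 60S proteins. The SD over all genes is widened by extremes between -7.99, the replaced fas2, and 11.3. Quartiles are less affected, at -0.14 and -0.04 for the 40S genes, -0.15 and -0.06 for the 60S genes, and -0.16 and 0.19 for all genes.

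The tables hold no counts. From the steps in which low FPKM values are spaced, a 40S gene had about 1606 to 32475 reads in a library, which gives a counting error of 0.012 to 0.047 on the log2 scale (median 0.021). The step found depended on how many bases were taken off the length, so these read numbers and errors are rough. Beyond 2 such errors, 41 genes were lower and 3 higher in fas S.j. The same count was not made for other genes, so it does not set the 40S genes apart from them. Counting error says nothing of the variation between cultures, which 1 library per strain does not show.

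**Figure D3:**
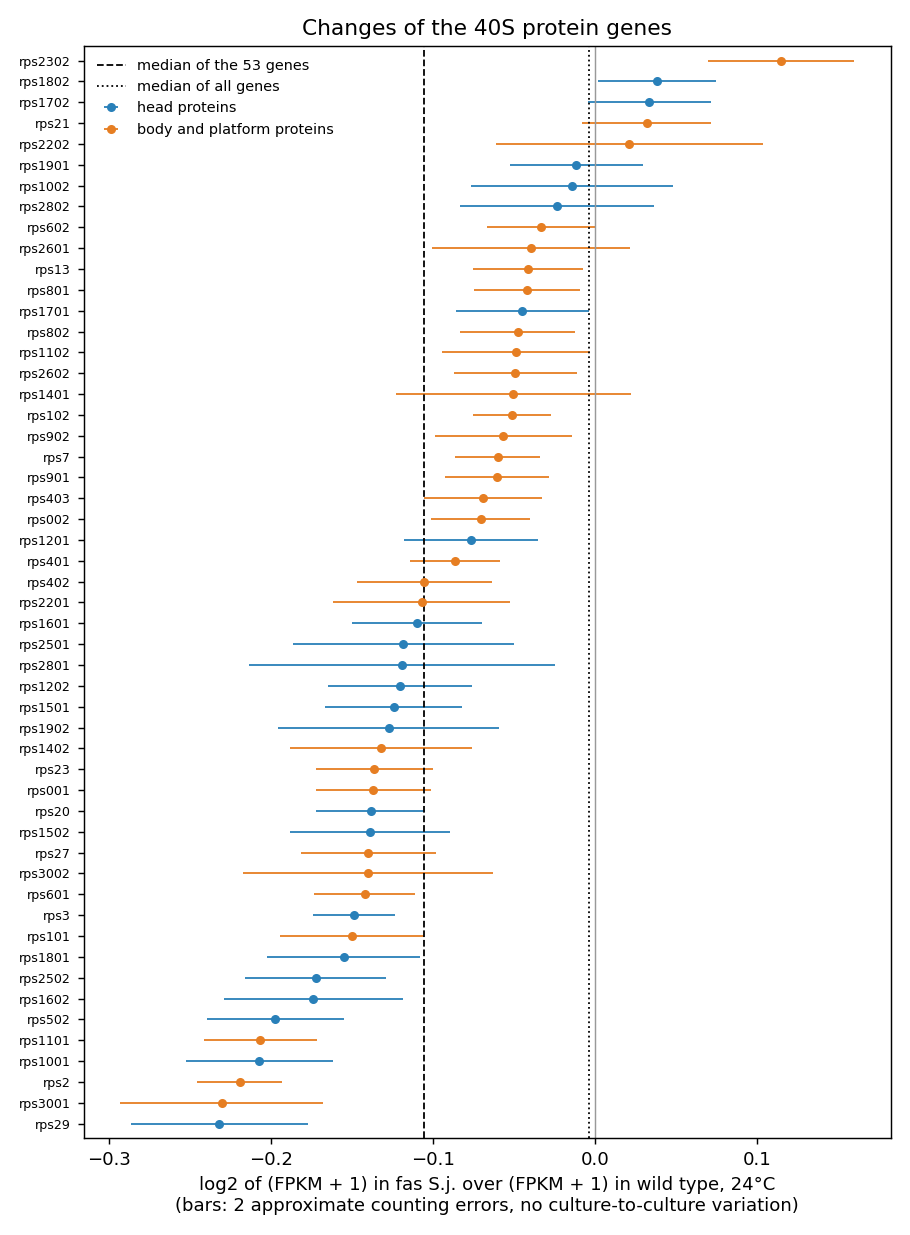
Difference of each of 52 of the 53 40S protein genes at 24°C as log2 of FPKM + 1 in fas S.j. over wild type (horizontal axis), sorted, in blue for proteins of the head and orange for those of the body and platform, with bars of 2 approximate counting errors. The dashed line marks the median of the 53 genes (-0.11) and the dotted line that of all genes, and the points lie between -0.23 (rps29) and 0.11 (rps2302).

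S2, S3 and S30 lie at the entry of the mRNA channel. The single gene for S2, rps2 (SPCC576.08c), had 2753 FPKM in fas S.j. against 3205 in wild type, a difference of -0.22. S3, from rps3, had 3107 against 3444 FPKM (-0.15). Of the S30 genes, rps3001 (SPAC19B12.04) had 1301 FPKM in fas S.j. against 1526 in wild type (-0.23), and rps3002 had 1893 against 2086 FPKM (-0.14). Each of these 4 genes was thus lower in fas S.j. by more than the median of the set. S9, a further protein near the entry, was closer to equal, with 2580 against 2690 FPKM for rps901 and 1657 against 1723 FPKM for rps902 (-0.06 each).

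At the exit side of the channel and on the platform, where S1, S14, S26 and S28 lie, the genes gave mixed values. For S1, rps101 differed by -0.15 and rps102 by -0.05. For S26, rps2601 had 1271 FPKM in fas S.j. against 1306 in wild type (-0.04), and rps2602 had 2804 against 2901 FPKM (-0.05). For S14, needed late in subunit maturation, rps1401 differed by -0.05, and rps1402 by -0.13 with 1141 FPKM in fas S.j. against 1251 in wild type. Of the S28 genes, rps2801 had 1320 FPKM in fas S.j. against 1433 in wild type (-0.12), whereas rps2802 had 1847 against 1878 FPKM (-0.02).

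S23, a protein of the decoding centre, came from 2 genes that went opposite ways. rps23 (SPAC23C11.02c) had 3653 FPKM in fas S.j. against 4015 in wild type (-0.14), whereas rps2302 (SPBP4H10.13) had 2066 against 1907 FPKM (0.11), the highest difference of the set. The products of the 2 genes are identical, so the sum for S23 differed by only -0.05. S15, whose tail reaches toward the decoding site, had lower levels from both genes, with 1554 against 1694 FPKM for rps1501 (-0.12) and 1179 against 1298 FPKM for rps1502 (-0.14).

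Among head proteins that face the tRNAs, S16 was lower from both of its genes. rps1601 had 1871 FPKM in fas S.j. against 2019 in wild type (-0.11), and rps1602 had 1636 against 1845 FPKM (-0.17). S18 contributes to a contact with the 60S subunit, and its genes diverged, with 1800 FPKM in fas S.j. against 2005 in wild type for rps1801 (-0.16) and 3111 against 3030 FPKM for rps1802 (0.04).

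S10 and S12 form part of the beak of the head, and none of their genes was among the 6 of 53 that were higher in fas S.j. The S12 genes had 2118 FPKM in fas S.j. against 2233 in wild type (rps1201, -0.08) and 1743 against 1894 FPKM (rps1202, -0.12). For S10, rps1001 (SPAC31G5.17c) had 1103 FPKM in fas S.j. against 1273 in wild type (-0.21), while rps1002 had 1222 against 1234 FPKM (-0.01). S29, elsewhere in the head, and S27 both bind zinc. The single S29 gene, rps29 (SPBC1685.09), showed the lowest ratio of all, with 3410 FPKM in fas S.j. against 4005 in wild type (-0.23). rps27 lies 441 bases downstream of rps29 on chromosome II and had 3469 against 3822 FPKM (-0.14). Both members of this tandem arrangement were lower in fas S.j., but so were 47 of the 53 genes.

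In the body, S6 is the substrate of the S6 kinases, a known readout of TOR signalling. Its genes had 1304 FPKM in fas S.j. against 1439 in wild type (rps601, -0.14) and 2029 against 2076 FPKM (rps602, -0.03). S11 came from rps1101, with 2755 against 3180 FPKM (-0.21), and rps1102, with 1697 against 1755 FPKM (-0.05). S19, in the head, is needed for processing of the precursor of the small subunit rRNA and its human counterpart is a disease gene. Its major gene rps1901 hardly differed, with 2073 FPKM in fas S.j. against 2090 in wild type (-0.01), and rps1902 differed by -0.13. Of the body proteins S7, S8 and S13, each gene differed by less than 0.1. S7 had 3379 FPKM in fas S.j. against 3523 in wild type (rps7, -0.06), and S13 had 3110 against 3200 FPKM (rps13, -0.04). For S8, rps801 had 2678 against 2757 FPKM (-0.04) and rps802 1888 against 1952 FPKM (-0.05).

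Only 6 genes were higher in fas S.j. by any amount. Besides rps2302 and rps1802 they included rps1702, with 3436 FPKM in fas S.j. against 3357 in wild type (0.03), rps21 (0.03) and rps2202 (0.02). S21 is a small protein that binds next to S0. The S0 genes were both lower, with 1375 against 1512 FPKM for rps001 (-0.14) and 1668 against 1752 FPKM for rps002 (-0.07). When rescaled to equal FPKM sums, 46 genes were lower in place of 47.

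By place in the subunit, the 23 genes for head proteins had a median difference of -0.12, with 20 lower, 15 of them by at least 0.1. The 30 genes for proteins of the body and platform had a median of -0.06, with 27 lower, 12 of them by at least 0.1. The ranges overlapped almost completely, with -0.23 to 0.04 in the head and -0.23 to 0.11 in the body and platform, and the difference between the groups was not tested.

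A ribosome takes 1 copy of each of these proteins, so the levels of paralogues were added for each protein. The 30 sums ran between 1828 and 8073 FPKM in fas S.j. and between 1961 and 8994 FPKM in wild type, a 4.42-fold and a 4.59-fold span. The levels were thus more even per protein than per gene. The coefficient of variation was 32.3% in both strains over the 30 sums, and 48.1% in fas S.j. and 48.9% in the wild type over the 53 genes. Adding values can narrow a spread by itself, and sums of unrelated genes were not made for comparison. Of the 30 sums, 28 were lower in fas S.j., with a median difference of -0.08. The exceptions were S21 (0.03) and S17, which was near equal, with 5421 FPKM in fas S.j. against 5405 in wild type (0.0044). S25 had the largest sum in both strains, with 8073 FPKM in fas S.j. against 8994 in wild type, and S14 the smallest, with 1828 against 1961 FPKM.

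Within a family, one gene commonly gave more mRNA than the other, and this order was mostly kept. Over the 22 families with 2 or 3 genes, the gene that was higher in wild type held a median of 60.9% of its family's FPKM in fas S.j. and 59.6% in the wild type. The order of the genes was the same in both strains in 21 of 22 families. In the exception, S10, rps1001 held 47.4% in fas S.j. and 50.8% in the wild type, so its genes were close to equal in both. The shift in share had a median of 1.29 percentage points and reached -3.91 points in S23, among the families reported by name.

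Unequal use was widest for S22, where rps2201 had 1785 FPKM in fas S.j. against 1922 in wild type and held 79.4% against 80.8% of the family, the remainder coming from rps2202. S1 followed, with 3274 FPKM in fas S.j. against 3392 in wild type from rps102 and 948 against 1052 FPKM from rps101. rps102 thus held 77.5% of S1 mRNA in fas S.j. and 76.3% in the wild type. The 3 genes for S4 had 2541 against 2698 FPKM (rps401), 967 against 1040 FPKM (rps402) and 1290 against 1353 FPKM (rps403). For S25, rps2502 held 68.8% in fas S.j. and 69.6% in the wild type, with rps2501 at 2515 against 2730 FPKM. For S26, rps2602 held 68.8% against 69.0%.

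**Figure D4:**
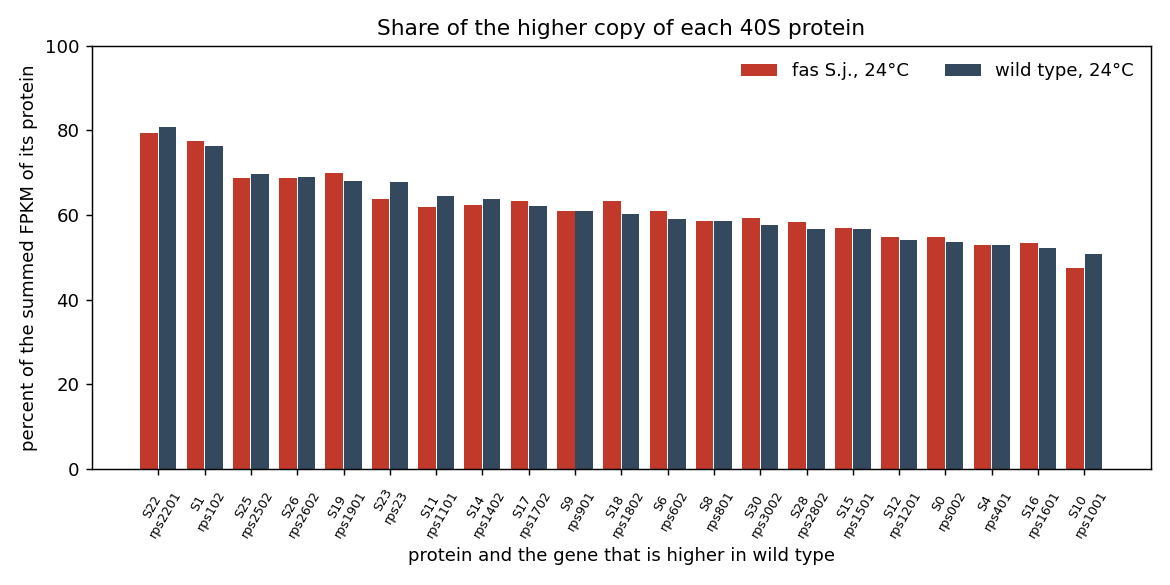
Percent of a protein's summed FPKM at 24°C held by the gene that is higher in wild type (vertical axis, 0 to 100), for 21 of the 22 proteins with 2 or 3 genes, in fas S.j. (red) and wild type (dark blue). S22 (79.4% and 80.8%) and S1 (77.5% and 76.3%) are the most unequal families, and the bars of a pair differ by at most 3.91 percentage points.

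Paralogues of 1 protein did not always differ alike. The widest spread within a family was 0.25 in S23, and among the other families reported by name it was 0.19 in S18, 0.19 in S10 and 0.16 in S11, and the median was 0.086. Coding sequences of the 24 pairs of paralogues were 74.9% to 94.3% identical, with 8 pairs encoding identical proteins, so the authors' counting could in places divide reads between copies. However, 41 of the 53 transcripts held no 50-base stretch found more than once in the genome. In 2 transcripts more than 10% of the stretches were so repeated. Stretches across a splice junction are not in the genome as such, so copies shared there were missed. The 35 genes without a paralogue of at least 90% identity had a median difference of -0.12, with 32 of them lower.

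The difference was also set beside other features of the genes. Across the 53 genes, which share their libraries, the difference had a Pearson correlation of -0.03 (Spearman 0.04) with the log2 mean level and of 0.0040 (Spearman 0.02) with transcript length. The 29 genes with introns had a median difference of -0.12 and the 24 genes without introns one of -0.08. Cuffdiff placed 34 of the genes alone in their locus and 19 in a shared locus, where the split of reads between neighbours is uncertain. The first had a median of -0.10 with 30 lower, and the second a median of -0.11 with 17 lower. The 32 genes with CAGTCACA and the 21 without had medians of -0.07 and -0.12. For the shorter CAGTCAC the order was reversed, with -0.11 in the 48 genes with it and -0.06 in the 5 without. The 23 genes with CCCTACCC had a median of -0.05 and the 30 without one of -0.11. The divergent pair rps2 and rps20, with 490 bases between their starts on chromosome III, differed by -0.22 and -0.14.

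The 5 further genes for 40S proteins gave similar values. rps2402 had 2945 FPKM in fas S.j. against 3263 in wild type (-0.15), ubi3 5030 against 5456 FPKM (-0.12) and cpc2 2958 against 3196 FPKM (-0.11). rps2401 and ubi5 were within 0.01 of equal, with 1521 against 1529 FPKM and 1680 against 1677 FPKM.

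The 60S protein genes gave nearly the same picture as the 40S genes. Of 77, 70 were lower in fas S.j., with a median of -0.10. Their summed FPKM was 151698 in fas S.j. and 163473 in the wild type (-0.11), against -0.09 for the 40S sum, so the ratio of 40S to 60S mRNA was 0.749 in fas S.j. and 0.741 in the wild type. The spread was wider, with rpl102 lowest (362 against 504 FPKM, -0.47) and rpl3002 highest (338 against 236 FPKM, 0.52).

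Factors that build the 40S subunit were also mostly lower in fas S.j. The SSU processome, a complex around the U3 snoRNA that cuts and folds the rRNA precursor, had 26 of 29 genes lower, with a median of -0.17 and 8 genes lower by 0.25 or more. The lowest was utp6, with 47.4 FPKM in fas S.j. against 63.1 in wild type (-0.40), and the highest imp3, with 101 against 96.5 FPKM (0.07). Among 14 genes listed as 40S assembly factors, 11 were lower and the median was -0.22. Here the kinase gene rio1 had 17.1 FPKM in fas S.j. against 25.6 in wild type (-0.56), while its relative rio2 had 63.9 against 59.4 FPKM (0.10). One of these 14, dim1, names a splicing factor in this annotation, and without it the median was -0.23.

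Translation initiation factors, which load the 40S subunit onto mRNA, had 22 of 28 genes lower, with a median of -0.14. One of these 28, trm6, entered by its annotated product name (Gcd10). Without it, 21 of 27 were lower and the median was -0.15. sum1, a subunit of eIF3, had 584 FPKM in fas S.j. against 740 in wild type (-0.34), and tif1102, an eIF1A-like protein, 47.6 against 41.8 FPKM (0.18). For proteins of the small subunit of the mitochondrial ribosome, the median was -0.10 and 23 of 30 genes were lower. These were between mrps28, with 47.0 FPKM in fas S.j. against 61.9 in wild type (-0.39), and fyv4, with 35.4 against 25.9 FPKM (0.44).

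The regulators went both ways. Of 13 genes for TOR pathway kinases and transcription factors of ribosome genes, 9 were lower and the median was -0.06. psk1, for the kinase of S6, had 50.2 FPKM in fas S.j. against 84.6 in wild type (-0.74), the lowest difference in any of these lists, and the kinase gene ppk18 had 43.9 against 26.8 FPKM (0.69). fhl1, for a forkhead factor of ribosomal protein genes, had 31.3 against 36.0 FPKM (-0.20).

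**Figure D5:**
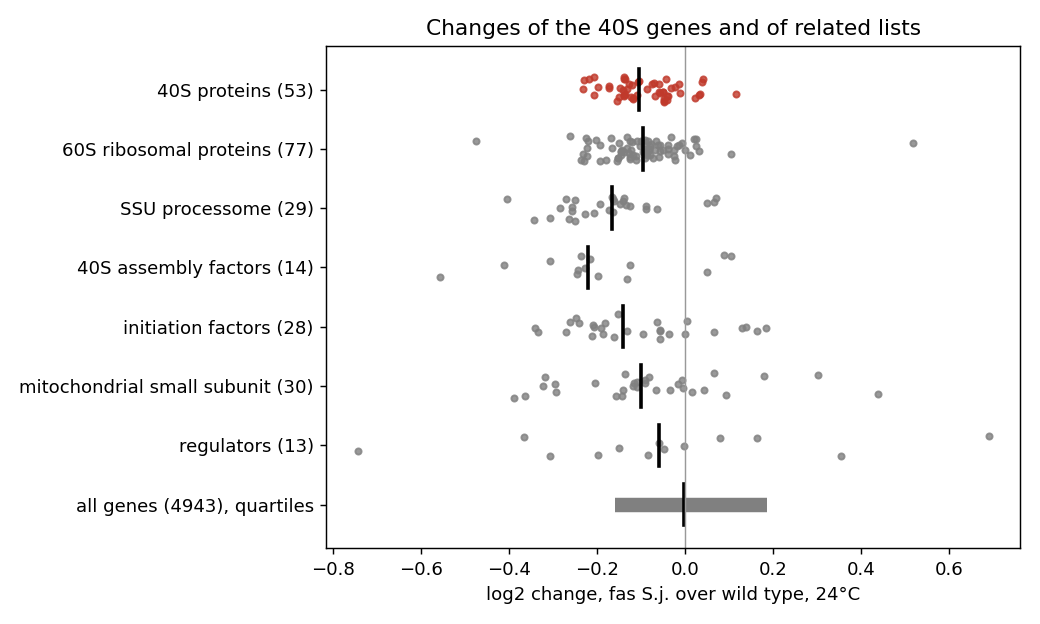
Difference at 24°C as log2 of FPKM + 1 in fas S.j. over wild type (horizontal axis) for each gene (points) of the 40S set (red) and of the related lists (grey), with list medians as black bars and the quartiles of all 4943 genes as a grey band. The 40S genes lie within -0.23 to 0.11, the 60S genes centre on a like median (-0.11 and -0.10), and the 40S assembly factors have the lowest median (-0.22).

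At 30°C a table of 285 genes was analysed. All 285 were lower in fas S.j., and none had a log2 ratio of FPKM above -0.50, so smaller or opposite differences at this temperature were not analysed here. Of the 53 genes, 1 was listed (1.89%), against 5.54% of the genes of the 24°C table and 6 of 77 genes for 60S proteins (7.79%). This was rps1602 (SPAC664.04c), one of the 2 genes for S16, with 1342 FPKM in fas S.j. against 1953 in wild type, a difference of -0.54. At 24°C the same gene differed by -0.17. Its paralogue rps1601 was not listed at 30°C. How far the other 52 genes differed at 30°C was not analysed here.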

How the data were processed

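Reads were mapped with TopHat by the authors, who deposited FPKM from Cuffdiff for 1 poly(A) library per strain and temperature, unpooled. Versions, genome build and use of strand in counting are not given in the sources used here, and read length is 75 bases per the labels and 50 in the methods. The deposited log2 fold changes, p-values, q-values and test statistics hold the study's own comparison and were not used. FPKM was compared within a temperature, with a pseudocount of 1, which understates differences of low genes. Genes with a mean FPKM under 1 were left out of the background. With 1 library per group no test was made. Read numbers are approximate, from the spacing of low FPKM values times length less 200 bases in 27 (fas S.j.) and 40 (wild type) single-exon genes, taken as 1 read.

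Names, coordinates and sequences come from RefSeq ASM294v3. Of 5143 identifiers, 5074 matched, and for 5061 of these, all 53 40S genes included, the coding sequence lay inside the deposited locus. Compared lists were made from annotated products and symbols. The members, lists and limits were chosen with earlier results of these data known. By rule, values are given for the 5 highest and 5 lowest differences, the 3 highest and 3 lowest wild-type levels, genes listed at 30°C, the 5 families with the widest spread of levels and of differences, and the extremes of each list. One of the 53 genes is counted but is not reported here by name. Other genes were named by the role of their protein, after their values were seen. Alternatives were a pseudocount of 0.1, a minimum of 10 FPKM or none, centring, limits of 0.5 and 1, genes alone in their locus and genes without a near-identical paralogue. Equal FPKM sums, the limit of 0.1, leaving out repeated transcripts, dim1 or trm6, and the 7-letter motif were added after seeing the data. Computation used Python 3.11.15 with pandas 2.3.3, numpy 2.4.6, scipy 1.17.1, Biopython 1.88 and matplotlib 3.10.9. The difference and the estimate of the read spacing were tested on simulated data, with planted differences larger than any among the 40S genes. The motif, paralogue and repeat searches were not tested in this way.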

Additional observations from a re-analysis of the deposited data

How the results depend on the processing

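Of 118 recomputed values, 115 stayed within the set margin. It was 0.25 on the log2 scale for a median, 1.5 times for a count and 5 percentage points for a share. Every median difference was smaller than 0.25 in size, so a median could vanish and still stay within the margin. Changing or dropping the minimum FPKM could not alter the 40S values, as their lowest mean was 459.9 FPKM. The count of 115 therefore does not show that the medians are stable. The median of all genes, -0.0037, was 0.0074 with centring, 0.0096 with equal FPKM sums and 0 with no minimum FPKM, so it has no stable sign. The median difference of the 40S genes ran between -0.12 without near-identical paralogues and -0.09 with equal FPKM sums. Centring on the genes with a mean of at least 10 FPKM gave -0.09 and left 47 genes lower, 24 of them by 0.1. No alternative put a 40S gene beyond 0.25. The 3 values that moved come from fewer or other genes by construction. With genes alone in their locus, 30 of 34 were lower and 17 of 34 lower by 0.1, and among genes at least as high as the lowest 40S gene 67.1% were lower. Restricting the lists to genes alone in their locus gave -0.20 for the mitochondrial small subunit, in place of -0.10. The regulators gave -0.15 in place of -0.06, and the 40S assembly factors -0.17 in place of -0.22. These shifts were all counted as within the margin. No paired analysis was possible because each strain had 1 library per temperature and the samples carry no replicate numbers to pair. Depth sets a counting error of roughly 0.012 to 0.047 on the log2 scale for a 40S gene, and the variation between cultures was not measured. At 30°C only genes lower in fas S.j. were analysed.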
